A study of Homo sapiens with 15 samples.

Results

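The genes described here encode the machinery of DNA replication and the regulators of entry into S phase, the phase of the cell cycle in which DNA is copied. They were chosen by symbol, and 49 of the 60649 genes in each deposited count table carried one of the chosen symbols. All 49 passed the filter on low counts. RNA was sequenced from HSC-5 cells, a human line from a cutaneous squamous cell carcinoma, that expressed Cas9 and a single guide RNA (sgRNA). The 5 groups were sgNeg (an empty vector, genotype WT), sgPRMT5-1 and sgPRMT5-2 (PRMT5 Knockout), and sgWDR77-1 and sgWDR77-2 (WDR77 Knockout), each with 3 biological replicates, so that 15 libraries were available. The labels number the guides with a hash sign. Treatment was given as Neomycin for every library. Guide sites lay in the catalytic part of PRMT5 and, for WDR77, in its first WD repeat. Whether pools or single clones were sequenced was not stated.

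PRMT5 is an enzyme that places symmetric dimethyl marks on arginines of histones, splicing proteins and other substrates, and WDR77 is its partner in the complex. Before S phase, the origin recognition complex, CDC6 and CDT1 load the MCM helicase onto origins of replication. Kinases, CDC45 and the GINS proteins then switch the helicase on, and polymerases, the sliding clamp and its loaders copy both strands while enzymes of nucleotide synthesis supply the building blocks. Transcription of many of these genes is driven by E2F factors, which are held in check by RB-family proteins until cyclin-dependent kinases release them, and the cells of squamous tumours often carry lesions in this control. The 49 genes were read in this order of roles, in 9 classes.

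The libraries held 5146711 to 6730428 reads assigned to genes, and the 49 genes together took 19773 to 32313 of them per library. Levels are given in CPM, counts per 1000000 gene reads of a library after scaling by the trimmed mean of M values (TMM). Differences are log2 fold changes from 1 limma voom fit of all 15 libraries over 14056 genes, and a gene is called where its p, adjusted over all of these genes by the Benjamini-Hochberg method, was under 0.05. The kit was given as TruSeq RNA v2 in the methods and as a stranded mRNA kit in the labels, and neither the strand setting nor the annotation release was given in the sources used here. Exons of 7 of the 49 genes (MCM7, POLA2, PRIM1, POLD1, POLD3, FEN1 and CHAF1B) overlap another gene on the same strand in the GENCODE annotation used for positions, and exons of 19 overlap one on the opposite strand. Reads of these genes, and of the 10 with listed pseudogenes (such as RRM2, RPA3, POLD2 and PCNA), may have been counted differently under another setting, which was not tested.

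The targeted genes were read first. PRMT5 was at 59.1, 49.6 and 67.8 CPM in sgNeg, 33.00, 35.8 and 41.4 with sgPRMT5-1, 44.1, 44.5 and 39.4 with sgPRMT5-2, 54.5, 64.2 and 54.4 with sgWDR77-1, and 79.9, 65.2 and 64.4 with sgWDR77-2. All 6 libraries with a PRMT5 guide lay below the sgNeg libraries, and those with a WDR77 guide overlapped sgNeg. PRMT5 had a log2 fold change of -0.67 (SE 0.13, adjusted p = 0.0057) with sgPRMT5-1 and -0.45 (SE 0.13, adjusted p = 0.0114) with sgPRMT5-2, so that 62.4% and 72.6% of the sgNeg level remained in the RNA. WDR77 was at 125, 114 and 119 CPM in sgNeg, 134, 119 and 156 with sgPRMT5-1, 126, 129.9 and 119 with sgPRMT5-2, 30.8, 52.01 and 53.3 with sgWDR77-1, and 26.6, 24.9 and 21.96 with sgWDR77-2. The 6 libraries with a WDR77 guide lay far below all others, and those of sgWDR77-2 lay below those of sgWDR77-1. WDR77 had a log2 fold change of -1.43 (SE 0.15, adjusted p = 2.02e-06) with sgWDR77-1 and -2.29 (SE 0.17, adjusted p = 6.92e-09) with sgWDR77-2, or 38.0% and 20.5% of the sgNeg level. RNA levels do not give the share of edited cells or the protein level.

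The labelled cell type was checked against marker genes. Of 11 keratinocyte or squamous markers, 10 passed the filter, and the list summed to 2861 to 3748 CPM per library, led by KRT17 (928 CPM on average), SFN (603) and ITGB4 (482). KRT14 was nearly absent, at 0.440 CPM. Within this list, KRT5 was at 656 ± 153 CPM in sgNeg (SD, n = 3), 270.3 ± 56.98 with sgPRMT5-1, 55.9 ± 4.77 with sgPRMT5-2, 39.97 ± 5.39 with sgWDR77-1 and 91.3 ± 9.6 with sgWDR77-2, and its log2 fold changes against sgNeg, -1.27, -3.53, -4.02 and -2.82 in this order, were all called lower. KRT6A ran from 0.777 to 30.8 CPM over the libraries. Of the 10 keratinocyte markers tested, 1 was called higher and 4 lower with sgPRMT5-1 (beside 1.26% and 1.61% of all genes), 3 and 4 with sgPRMT5-2 (beside 16.3% and 14.7%), 1 and 4 with sgWDR77-1 (beside 3.58% and 5.9%), and 3 and 3 with sgWDR77-2 (beside 1.81% and 2.98%). Leukocyte markers summed to at most 0.555 CPM, with CD3E at 0, and fibroblast markers to at most 16.2 CPM, nearly all of it COL1A1 (10.7 CPM) with COL1A2 at 0. Melanocyte markers summed to 2.55 to 7.48 CPM, led by PMEL (3.48 CPM), with TYR and DCT at 0. Of the 4 endothelial markers, KDR was at 0 and PECAM1 was near it (0.116 CPM), and CDH5 was the most abundant (20.02 CPM). The endothelial markers summed to 22.9, 16.6 and 24.9 CPM in sgNeg, 19.7, 21.4 and 12.7 with sgPRMT5-1, 15.2, 17.2 and 17.3 with sgPRMT5-2, 34.2, 31.3 and 36.1 with sgWDR77-1, and 19.6, 19.3 and 19.6 with sgWDR77-2. The sgWDR77-1 libraries were the highest, apart from all others, and this rested on CDH5, with a log2 fold change of 0.80 (SE 0.16, adjusted p = 0.00325), while VWF, the other endothelial marker tested (1.72 CPM), had -0.46 (SE 0.41, adjusted p = 0.538), not called. With sgPRMT5-2, the markers COL1A1 (-0.65, SE 0.25, adjusted p = 0.0477), VWF (-2.28, SE 0.56, adjusted p = 0.00389) and PMEL (-1.41, SE 0.43, adjusted p = 0.0162) were called lower, of 5 fibroblast, endothelial and melanocyte markers tested. MLANA, the other melanocyte marker tested, had 0.74 (SE 0.49, adjusted p = 0.27), not called and of opposite sign to PMEL. COL1A1 was not called without sgNeg replicate 1 or 2 or sgPRMT5-2 replicate 1 or 2 (log2 fold changes -0.66 to -0.51), nor with no filter on low counts or by limma-trend. PMEL was not called without sgNeg replicate 1 or sgPRMT5-2 replicate 2 (log2 fold changes -1.32 to -0.86). The part of these differences in the results below was not tested.

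Levels of the 49 genes in sgNeg spanned a wide range per kilobase of exon. TK1, which phosphorylates thymidine, was the highest at 157 ± 30.8 CPM per kb (SD, n = 3), and PCNA, the sliding clamp, followed at 148 ± 18.3, within the spread of TK1. The helicase subunit MCM3 (73.1 ± 7.6), the flap endonuclease FEN1 (58.8 ± 7.36), the reductase subunit RRM1 (53.9 ± 3.49), the helicase subunit MCM7 (52.1 ± 7.22) and SLBP (48.2 ± 3.12) came next, and the spread of each overlapped that of the gene before it from FEN1 on. The median gene was at 14.5 CPM per kb. CCNE2 (1.15 ± 0.259), POLA2 (0.359 ± 0.0813) and E2F2 (0.269 ± 0.132) were the lowest. At least 10 reads were counted in every library for 48 of the 49 genes and at least 50 for 46. E2F2, with 2 to 14 reads, was the gene under 10.

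Summed over the 49 genes, the level was 4124, 4029 and 4783 CPM in sgNeg, 4682, 4649 and 5407 with sgPRMT5-1, 5023, 4883 and 4899 with sgPRMT5-2, 4074, 3977 and 3608 with sgWDR77-1, and 5369, 4536 and 4369 with sgWDR77-2. The 3 sgWDR77-1 libraries included the lowest of the 15, and sgPRMT5-1 replicate 3 and sgWDR77-2 replicate 1 were the highest. Reads outside genes were 7.16% in sgNeg replicate 2, 6.04% in sgWDR77-1 replicate 2 and 5.70% in sgWDR77-1 replicate 3, and 2.75% to 4.26% in the other 12 libraries. sgNeg replicate 2 and sgWDR77-1 replicate 3 had the lowest sums of their groups and sgWDR77-1 replicate 2 the next lowest, and the part of these reads in the differences was not tested. Over genes with at least 10 reads in a pair of libraries, sgWDR77-1 replicate 1 stood apart from the other 2 libraries of its group, since the chi-square of its counts, divided by the degrees of freedom, was 12.5 and 17.7 against them and 3.21 between them. The same values were 9.16 and 6.44, beside 3.86, for sgNeg replicate 2, 6.04 and 5.38, beside 2.02, for sgPRMT5-1 replicate 3, and 4.97 and 6.78, beside 2.03, for sgWDR77-2 replicate 1, and the last 2 were the libraries with the highest sums. sgNeg replicate 3 lay above the other sgNeg libraries and within the range of the guide groups. The group levels were 4312 ± 411 CPM in sgNeg, 4913 ± 428 with sgPRMT5-1, 4935 ± 76.6 with sgPRMT5-2, 3886 ± 246 with sgWDR77-1 and 4758 ± 535 with sgWDR77-2 (SD, n = 3). In bulk RNA, fewer cells in S phase and less RNA of these genes per cell cannot be told apart. Counting genes above their own mean over the 15 libraries gave 13, 9 and 36 of 49 in sgNeg, 31, 32 and 46 with sgPRMT5-1, 38, 35 and 36 with sgPRMT5-2, 15, 8 and 4 with sgWDR77-1, and 46, 22 and 18 with sgWDR77-2. Replicates of sgPRMT5-2 were close to one another, while 1 library stood above the rest in sgNeg, sgPRMT5-1 and sgWDR77-2.

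**Figure D1:**
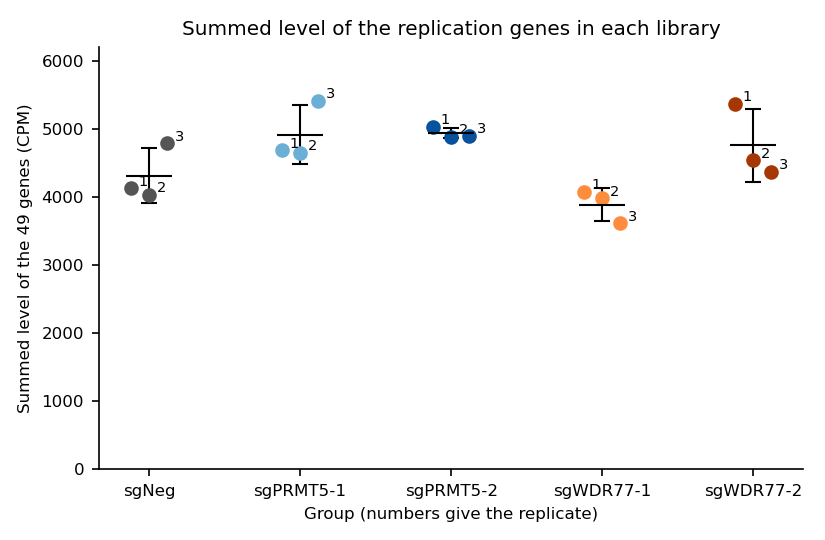
Summed level of the 49 genes in each library, in TMM-scaled CPM, with a point per library, numbered by replicate, a line at each group mean and whiskers of 1 SD (n = 3). The sgWDR77-1 libraries lie between 3608 and 4074 CPM, and the sgPRMT5-2 libraries between 4883 and 5023 CPM.

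The genes did not all follow this sum. Pearson's r between a gene and the mean log2 level of all 49, over the 15 libraries and given as a description, was highest for the helicase subunit MCM5 (0.955) and for GINS2 (0.943). It was lowest for the primase subunit PRIM1 (-0.44), the polymerase delta subunit POLD3 (-0.14) and the small subunit of replication protein A, RPA3 (0.02). Outside the 49 genes and the other lists, the genes closest to this mean over the 15 libraries were KPNA2 (r = 0.959), PSMC3 (0.947), SMU1 (0.947), LARS2 (0.946) and TUBB4B (0.946). The libraries share their groups, so these values describe likeness and carry no test.

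Each guide was then compared with sgNeg, which asks whether loss of either partner of the complex changes the RNA of these genes. The 4 comparisons share the same 3 sgNeg libraries. With sgPRMT5-1, limma voom called 0 of the 49 genes higher and 0 lower, beside 1.26% and 1.61% of all genes tested. At an unadjusted p under 0.05, 10 were higher and 1 lower (20.4% and 2.04%, beside 10% and 7.44% of all genes). By limma-trend, 0 were also called in each direction (beside 1.1% and 1.34% of all genes). Voom with quality weights called 1 in each (2.04%, beside 3.21% and 2.61% of all genes). The median log2 fold change of the 49 was 0.17, beside 0.02 over all genes, and 41 were positive, beside 7486 of the 14056 genes tested. With sgWDR77-2, 0 were called higher and 1 lower, beside 1.81% and 2.98% of all genes. The gene called lower was POLD2. At an unadjusted p under 0.05, 11 were higher and 2 lower (22.4% and 4.08%, beside 9.63% and 9.95% of all genes). By limma-trend, 0 were called higher (beside 1.92% of all genes). Quality weights and a fit of the compared groups only each called 1 higher (2.04%, beside 4.33% and 1.9% of all genes). The median was 0.14, beside 0.02, and 36 were positive, beside 7327 of the 14056 genes tested.

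With sgPRMT5-2, 12 of the 49 genes were called higher (24.5%, beside 16.3% of all genes) and 4 lower (8.16%, beside 14.7%). The median log2 fold change was 0.17, beside 0.01 over all genes, and 39 were positive, beside 7094 of the 14056 genes tested. Those called higher were ORC6, CDC6, MCM3, MCM5, MCM10, GINS2, DSCC1, POLE, FEN1, RRM2, CCNE1 and E2F7, with log2 fold changes from 0.33 to 0.63, and those called lower were RPA3, PRIM1, POLD2 and LIG1, from -0.58 to -0.35. The number called higher was 4 without sgNeg replicate 1 (8.16%, beside 11.2% of all genes), 5 without sgNeg replicate 2 (10.2%, beside 11.9%), 5 without sgPRMT5-2 replicate 1 (10.2%, beside 10.9%), and 6 without sgPRMT5-2 replicate 2 (12.2%, beside 11.5%) or replicate 3 (12.2%, beside 11.4%), so that without any 1 of the first 3 libraries named the share was below that of all genes. Without sgNeg replicate 3, 11 were higher (22.4%, beside 13.2%), and with no filter on low counts 9 (18.4%, beside 7.21%). Quality weights gave 16 higher (32.7%, beside 21.3%) and a fit of the compared groups only 17 (34.7%, beside 20.9%). The number called lower was 2 without any 1 of the sgPRMT5-2 replicates 1, 2 and 3 (4.08%, beside 11.2%, 11.4% and 12.1% of all genes), and 2 with no filter on low counts (beside 6.66%). With scaling by library totals only, 7 were higher (14.3%, beside 11.7% of all genes) and 4 lower (8.16%, beside 19.2%), so that 63.6% of the called genes were higher and not 75%. Over all genes the same scaling gave 1644 higher and 2694 lower, in place of 2296 and 2065.

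With sgWDR77-1, 0 of the 49 genes were called higher and 6 lower (0% and 12.2%), beside 3.58% and 5.9% of all genes. At an unadjusted p under 0.05, 0 were higher and 10 lower (0% and 20.4%, beside 10.3% and 13.6% of all genes). By limma-trend, 0 were called higher and 7 lower (0% and 14.3%, beside 3.54% and 6% of all genes). The 6 called lower by limma voom were MCM7, RFC2, RFC5, RPA3, POLD2 and RRM1, with log2 fold changes from -0.76 to -0.35. Of these, MCM7, RFC2, RPA3 and POLD2 are the only 4 of the 49 genes on chromosome 7. The part of this shared location in the calls was not tested. The median was -0.10, beside -0.01 over all genes, and 13 of the 49 were positive, beside 6900 of the 14056 genes tested. The number called lower was 3 without sgNeg replicate 3 (6.12%, beside 3.54% of all genes) and 2 in a fit of the compared groups only (4.08%, beside 1.67%). Over the 4 guides, 29 genes were called with no guide and 18 with 1. RPA3 and POLD2, both on chromosome 7, were called with 2 and 3 guides, each time lower, and no gene was called in opposite directions. No tally over all genes is set beside these numbers, which describe the 49 genes only.

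**Figure D2:**
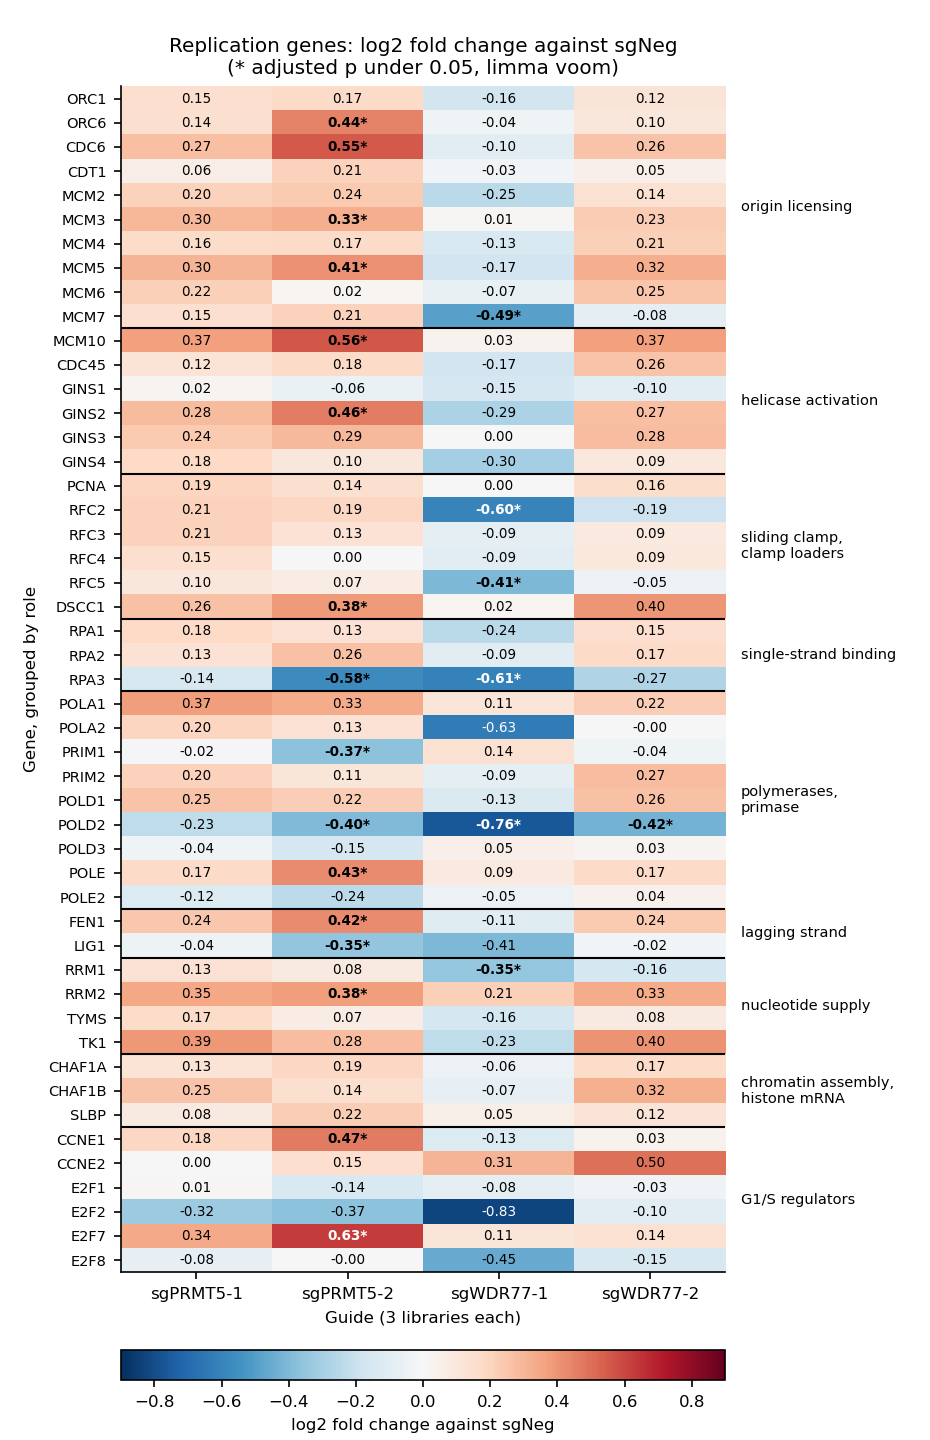
Log2 fold change of each of the 49 genes against sgNeg for the 4 guides, ordered by role, with an asterisk at called values. POLD2 is below 0 with all 4 guides and called with 3 of them, while most genes called with sgPRMT5-2 are above 0.

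**Figure D3:**
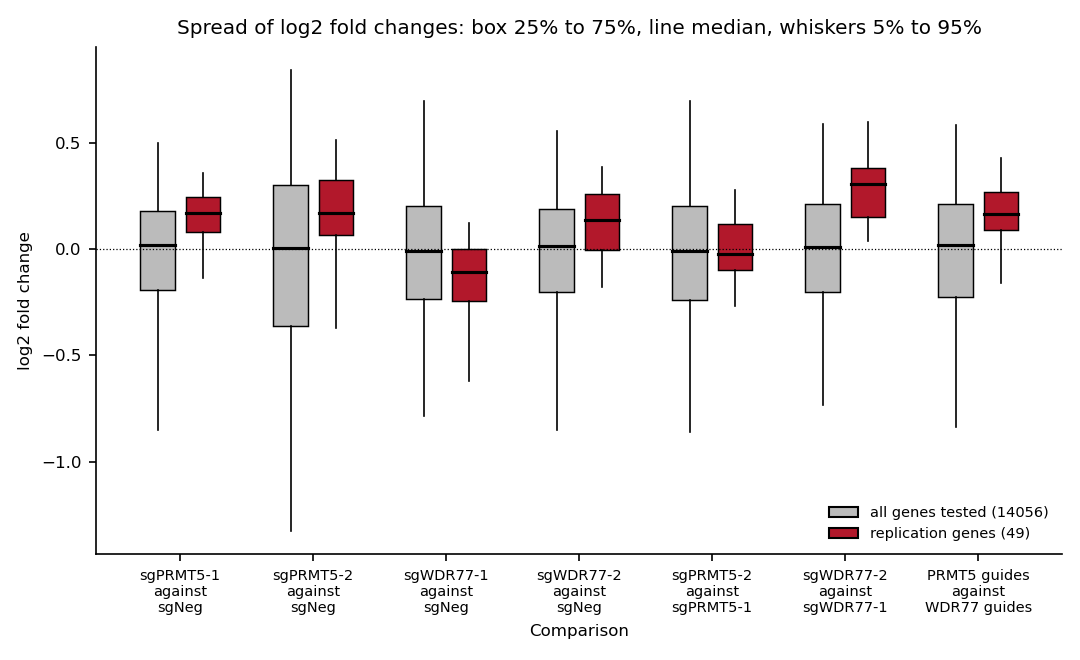
Spread of the log2 fold changes of the 49 genes and of all 14056 genes tested, in each comparison, with a line at the median, boxes from the 25% to the 75% point and whiskers from the 5% to the 95% point. The median of the 49 genes was 0.17, 0.17, -0.10 and 0.14 for the PRMT5 guides 1 and 2 and the WDR77 guides 1 and 2, beside 0.02, 0.01, -0.01 and 0.02 over all genes.

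Origin licensing comes first in order of action, with 10 genes. CDC6, the ATPase that loads the helicase with CDT1, was at 121, 115 and 142 CPM in sgNeg, 149, 139 and 168 with sgPRMT5-1, 180.5, 184 and 186 with sgPRMT5-2, 137, 121 and 95.2 with sgWDR77-1, and 173, 138 and 142 with sgWDR77-2. All sgPRMT5-2 libraries lay above all sgNeg libraries, and the other guides overlapped sgNeg. CDC6 (ENSG00000094804.12, chr17:40287879-40304657, plus strand, GRCh38) was at 126 ± 14.2 CPM in sgNeg and 184 ± 2.84 CPM with sgPRMT5-2 (SD, n = 3). The log2 fold change was 0.55 (SE 0.12, adjusted p = 0.00147), and the call held with every single library left out. With sgPRMT5-1, sgWDR77-1 and sgWDR77-2 it was 0.27, -0.10 and 0.26, not called. The promoter of CDC6 (RefSeq, GRCh38.p14, chr17:40287629-40287928, plus strand, 250 bases before to 50 after the start) is shown because the gene was called in every such fit, with an E2F motif in capitals.
CDC6: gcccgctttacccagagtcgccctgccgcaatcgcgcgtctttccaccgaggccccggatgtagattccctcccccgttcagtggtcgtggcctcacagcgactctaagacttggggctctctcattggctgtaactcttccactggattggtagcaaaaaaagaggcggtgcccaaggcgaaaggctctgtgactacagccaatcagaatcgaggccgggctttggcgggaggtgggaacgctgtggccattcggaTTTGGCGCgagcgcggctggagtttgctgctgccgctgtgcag
The letters searched were TTTCGCGC, TTTGGCGC, TTTCCCGC and TTTGCCGC, on both strands, and TTTGGCGC began 7 bases past the start of CDC6. A RefSeq promoter was listed for 40 of the 49 genes, all but MCM4, MCM5, GINS4, DSCC1, RPA2, RPA3, POLD3, CCNE2 and E2F8. A match was present in the first listed promoter of 19 of these 40 (47.5%), in 38.8% of all 49 promoters listed for them, and in 3.31% of the 35116 promoters of the whole table. Of the 12 genes called higher with sgPRMT5-2, 10 had a promoter and 4 of those a match (CDC6, MCM3, GINS2 and POLE). Of the 4 called lower, 3 had a promoter and LIG1 a match. A match is a description of letters and was not tested.

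MCM5, a subunit of the ring-shaped MCM helicase, was at 93.97, 94.5 and 127 CPM in sgNeg, 123, 117 and 147 with sgPRMT5-1, 145, 138 and 132 with sgPRMT5-2, 91.8, 102 and 83.6 with sgWDR77-1, and 164, 117 and 116 with sgWDR77-2. The sgPRMT5-2 libraries lay above those of sgNeg, and the others overlapped them, with sgWDR77-2 replicate 1 the highest of the 15. With sgPRMT5-2 its log2 fold change was 0.41 (SE 0.13, adjusted p = 0.0239). MCM5 was not called without sgNeg replicate 1 or 2 or any 1 sgPRMT5-2 library (log2 fold changes 0.32 to 0.41), nor with scaling by library totals only. ORC6, a subunit of the origin recognition complex, was called higher with sgPRMT5-2, at 58.6 ± 10.6 CPM in sgNeg and 78.9 ± 3.71 CPM with the guide and a log2 fold change of 0.44 (SE 0.12, adjusted p = 0.00776). ORC6 was not called without sgNeg replicate 1 (log2 fold change 0.27). MCM3, another helicase subunit, rose with sgPRMT5-2 by 0.33 (SE 0.09, adjusted p = 0.0111) on the log2 scale. MCM3 was not called without sgNeg replicate 1 or 2 or sgPRMT5-2 replicate 1 (log2 fold changes 0.27 to 0.29). With sgWDR77-1, the helicase subunit MCM7 was called lower, at 258 ± 35.8 CPM in sgNeg and 183 ± 8.75 CPM with the guide, a log2 fold change of -0.49 (SE 0.12, adjusted p = 0.0128). MCM7 was not called without sgNeg replicate 3 (log2 fold change -0.41), nor in a fit of the compared groups only. The other genes of the class, ORC1, CDT1, MCM2, MCM4 and MCM6, were called with no guide, and their log2 fold changes ran from -0.25 to 0.25.

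Activation of the loaded helicase is represented by MCM10, CDC45 and the 4 GINS subunits. MCM10, which helps the active helicase to start unwinding, was at 43.7, 46.02 and 56.05 CPM in sgNeg, 57.3, 56.5 and 74.99 with sgPRMT5-1, 77.1, 72.1 and 64.1 with sgPRMT5-2, 56.3, 50.5 and 42.3 with sgWDR77-1, and 75.3, 62.4 and 51.7 with sgWDR77-2. Libraries of both PRMT5 guides lay above sgNeg, those of sgPRMT5-1 by a small margin, and both WDR77 guides overlapped sgNeg. The level of MCM10 (ENSG00000065328.17, chr10:13161558-13211110, plus strand) was 48.6 ± 6.57 CPM in sgNeg and 71.1 ± 6.54 CPM with sgPRMT5-2, a log2 fold change of 0.56 (SE 0.15, adjusted p = 0.00586), called with every single library left out. With sgPRMT5-1 it was 0.37 and with sgWDR77-2 0.37, not called. Its RefSeq promoter (GRCh38.p14, chr10:13161308-13161607, plus strand) held none of the 4 motifs and is shown beside that of CDC6 as another gene with a stable call.
MCM10: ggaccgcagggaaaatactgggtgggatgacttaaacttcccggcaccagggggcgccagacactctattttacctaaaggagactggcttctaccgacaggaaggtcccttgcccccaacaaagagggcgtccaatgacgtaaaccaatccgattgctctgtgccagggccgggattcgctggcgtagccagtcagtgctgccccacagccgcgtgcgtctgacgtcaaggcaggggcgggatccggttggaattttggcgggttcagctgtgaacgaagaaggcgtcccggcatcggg
GINS2, a subunit of the GINS complex that joins CDC45 and the MCM helicase, was at 52.5, 43.4 and 65.1 CPM in sgNeg, 55.8, 60.3 and 79.6 with sgPRMT5-1, 71.04, 74.6 and 72.6 with sgPRMT5-2, 46.5, 45.9 and 37.8 with sgWDR77-1, and 75.3, 58.1 and 59.4 with sgWDR77-2. The sgPRMT5-2 libraries lay above sgNeg, and the other guides overlapped sgNeg, with the sgWDR77-1 libraries at the low end. GINS2 rose with sgPRMT5-2 by 0.46 (SE 0.14, adjusted p = 0.0187) on the log2 scale. GINS2 was not called without sgNeg replicate 1 or 2 or any 1 sgPRMT5-2 library (log2 fold changes 0.31 to 0.46). CDC45, GINS1, GINS3 and GINS4 were called with no guide, and their log2 fold changes ran from -0.30 for GINS4 with sgWDR77-1 to 0.29 for GINS3 with sgPRMT5-2.

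Among the sliding clamp and its loaders, RFC2, a subunit of the clamp loader, was at 52.5, 48.8 and 55.3 CPM in sgNeg, 53.6, 56.7 and 72.3 with sgPRMT5-1, 61.9, 57.96 and 57.9 with sgPRMT5-2, 38.4, 33.1 and 31.7 with sgWDR77-1, and 58.7, 43.1 and 37.98 with sgWDR77-2. The sgWDR77-1 libraries lay below all sgNeg libraries, those of sgPRMT5-2 lay above them, and sgWDR77-2 spread across the range. RFC2 fell from 52.2 ± 3.26 to 34.4 ± 3.52 CPM with sgWDR77-1, a log2 fold change of -0.60 (SE 0.15, adjusted p = 0.0121), called with every single library left out. With sgPRMT5-1, sgPRMT5-2 and sgWDR77-2 the values were 0.21, 0.19 and -0.19, not called. DSCC1, part of an alternative loader linked to cohesion of sister chromatids, was at 49.4, 52.1 and 60.6 CPM in sgNeg, 56.4, 67.1 and 71.4 with sgPRMT5-1, 68.1, 72.9 and 69.5 with sgPRMT5-2, 70.7, 50.2 and 45.4 with sgWDR77-1, and 75.5, 66.8 and 71.1 with sgWDR77-2. Libraries of sgPRMT5-2 and sgWDR77-2 lay above sgNeg, and sgWDR77-1 had 1 library above and 1 below it. DSCC1 had a log2 fold change of 0.38 (SE 0.13, adjusted p = 0.0326) with sgPRMT5-2 and 0.40 (SE 0.13, adjusted p = 0.0892) with sgWDR77-2, and the first was called. DSCC1 was not called without sgNeg replicate 1 or 2 or any 1 sgPRMT5-2 library (log2 fold changes 0.30 to 0.39), nor with scaling by library totals only or with no filter on low counts. RFC5, another subunit of the loader, fell with sgWDR77-1 by 0.41 on the log2 scale (SE 0.11, adjusted p = 0.0271). RFC5 was not called without sgNeg replicate 3 or sgWDR77-1 replicate 3 (log2 fold changes -0.33 to -0.32), nor with no filter on low counts or in a fit of the compared groups only. PCNA, the clamp itself, was called with no guide, with log2 fold changes of 0.19, 0.14, 0.00 and 0.16 for PRMT5 guides 1 and 2 and WDR77 guides 1 and 2. RFC3 and RFC4, also loader subunits, lay between -0.09 and 0.21.

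Replication protein A coats single-stranded DNA at the fork. RPA3, its smallest subunit, was at 62.98, 61.3 and 58.8 CPM in sgNeg, 55.6, 57.9 and 52.2 with sgPRMT5-1, 38.6, 42.8 and 41.6 with sgPRMT5-2, 32.3, 44.4 and 44.7 with sgWDR77-1, and 44.3, 51.9 and 55.99 with sgWDR77-2. Every library with a guide lay below the lowest sgNeg library. Levels were lowest with sgPRMT5-2 and sgWDR77-1. RPA3 (ENSG00000106399.11, chr7:7636518-7718607, minus strand) was at 61.02 ± 2.12 CPM in sgNeg, 41.00 ± 2.21 CPM with sgPRMT5-2 and 40.5 ± 7.07 CPM with sgWDR77-1. The log2 fold change was -0.58 (SE 0.12, adjusted p = 0.00107) with sgPRMT5-2 and -0.61 (SE 0.12, adjusted p = 0.00323) with sgWDR77-1, both called with every single library left out. In a fit of the compared groups only, the second was not called. With sgPRMT5-1 and sgWDR77-2 it was -0.14 and -0.27, not called. The larger subunits RPA1 and RPA2 were called with no guide, with log2 fold changes from -0.24 to 0.26.

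Polymerases and primase make up 9 genes. POLD2, the second subunit of polymerase delta, which copies the lagging strand, was at 175, 152 and 180.5 CPM in sgNeg, 144, 129 and 161 with sgPRMT5-1, 129.8, 123 and 130.5 with sgPRMT5-2, 99.9, 94.2 and 104 with sgWDR77-1, and 137, 119.95 and 121 with sgWDR77-2. The libraries of sgPRMT5-2, sgWDR77-1 and sgWDR77-2 all lay below the lowest sgNeg library, and those of sgPRMT5-1 overlapped sgNeg. POLD2 (ENSG00000106628.12, chr7:44114631-44124358, minus strand) was at 169 ± 15.1 CPM in sgNeg and 99.4 ± 4.92 CPM with sgWDR77-1. The log2 fold change was -0.76 (SE 0.10, adjusted p = 4.53e-05) with sgWDR77-1, -0.42 (SE 0.10, adjusted p = 0.012) with sgWDR77-2 and -0.40 (SE 0.10, adjusted p = 0.00366) with sgPRMT5-2, each called with every single library left out. With sgPRMT5-1 it was -0.23 (SE 0.10, adjusted p = 0.23), not called. POLD2 was the gene called with the most guides, and its RefSeq promoter (GRCh38.p14, chr7:44123499-44123798, minus strand), shown for that reason, held none of the 4 motifs. This window lies inside the gene span given above, so the RefSeq start differs from the start of that span.
POLD2: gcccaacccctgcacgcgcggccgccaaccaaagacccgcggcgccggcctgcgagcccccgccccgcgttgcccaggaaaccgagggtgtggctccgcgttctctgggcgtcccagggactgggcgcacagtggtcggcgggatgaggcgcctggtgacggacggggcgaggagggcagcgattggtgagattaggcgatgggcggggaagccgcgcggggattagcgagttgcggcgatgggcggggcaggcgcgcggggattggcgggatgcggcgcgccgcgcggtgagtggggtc
POLA1, the catalytic subunit of polymerase alpha, was at 54.2, 67.9 and 75.3 CPM in sgNeg, 81.9, 73.3 and 99.99 with sgPRMT5-1, 82.4, 82.4 and 81.6 with sgPRMT5-2, 89.4, 66.6 and 58.2 with sgWDR77-1, and 91.8, 74.9 and 63.9 with sgWDR77-2. The sgPRMT5-2 libraries lay above sgNeg, and the other groups overlapped it and varied widely between replicates. None of its log2 fold changes, 0.37, 0.33, 0.11 and 0.22 for PRMT5 guides 1 and 2 and WDR77 guides 1 and 2, was called.

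POLE, the catalytic subunit of the leading-strand polymerase epsilon, was called higher with sgPRMT5-2, at 122 ± 19.8 CPM in sgNeg and 163 ± 7.88 CPM with the guide, a log2 fold change of 0.43 (SE 0.13, adjusted p = 0.0167). POLE was not called without sgNeg replicate 1 or sgPRMT5-2 replicate 1 or 2 (log2 fold changes 0.26 to 0.40), nor with scaling by library totals only. PRIM1, the catalytic subunit of primase, was called lower with the same guide, at 34.2 ± 1.94 CPM and 26.5 ± 0.967 CPM, a log2 fold change of -0.37 (SE 0.13, adjusted p = 0.039). PRIM1 was not called without sgNeg replicate 1 or any 1 sgPRMT5-2 library (log2 fold changes -0.42 to -0.34), nor with no filter on low counts. Per kilobase of exon, PRIM1 was at 10.3 ± 0.586 CPM in sgNeg and 11.5 ± 2.41 CPM with sgWDR77-1, not called. With sgPRMT5-1 and sgWDR77-2 it was at 10.2 ± 0.327 and 10.03 ± 0.437 CPM, also not called. Exons of PRIM1 overlap another gene on each strand. POLA2, PRIM2, POLD1, POLD3 and POLE2, the remaining subunits, were called with no guide. POLA2, with 12 to 36 reads per library, had the widest range, from -0.63 with sgWDR77-1 to 0.20 with sgPRMT5-1.

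Lagging-strand fragments are trimmed by FEN1 and joined by LIG1, DNA ligase 1. FEN1 was at 123, 117 and 148 CPM in sgNeg, 147, 139 and 173 with sgPRMT5-1, 165, 165 and 187 with sgPRMT5-2, 115, 124 and 118 with sgWDR77-1, and 182, 148 and 129 with sgWDR77-2. The sgPRMT5-2 libraries lay above sgNeg, and the other groups overlapped it. FEN1 rose with sgPRMT5-2 by 0.42 (SE 0.12, adjusted p = 0.00932) on the log2 scale. FEN1 was not called without sgNeg replicate 2 or sgPRMT5-2 replicate 3 (log2 fold changes 0.33 to 0.35). LIG1 moved the other way with this guide, from 41.4 ± 6.51 to 32.03 ± 1.24 CPM, a log2 fold change of -0.35 (SE 0.13, adjusted p = 0.04). LIG1 was not called without sgNeg replicate 3 or any 1 sgPRMT5-2 library (log2 fold changes -0.40 to -0.27), nor with no filter on low counts. With sgWDR77-1 the value for LIG1 was -0.41 (SE 0.13, adjusted p = 0.0546), not called.

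Nucleotide supply is represented by RRM1 and RRM2, the subunits of ribonucleotide reductase, by the thymidylate synthase TYMS and by TK1. RRM2 was at 154, 136 and 157 CPM in sgNeg, 175, 179.6 and 215 with sgPRMT5-1, 199, 178 and 203 with sgPRMT5-2, 215, 167 and 142 with sgWDR77-1, and 229, 176 and 163 with sgWDR77-2. Libraries of sgPRMT5-1, sgPRMT5-2 and sgWDR77-2 all lay above sgNeg, and sgWDR77-1 overlapped it. The log2 fold changes of RRM2 were 0.35, 0.38, 0.21 and 0.33 for PRMT5 guides 1 and 2 and WDR77 guides 1 and 2, and the one with sgPRMT5-2 was called (SE 0.13, adjusted p = 0.0369). RRM2 was not called without any 1 sgNeg library or any 1 sgPRMT5-2 library (log2 fold changes 0.31 to 0.41), nor with scaling by library totals only or with no filter on low counts. TK1 was at 275, 242 and 353 CPM in sgNeg, 338, 343 and 456 with sgPRMT5-1, 348, 339 and 352 with sgPRMT5-2, 189.7, 294 and 261 with sgWDR77-1, and 449, 353 and 342 with sgWDR77-2. All groups overlapped sgNeg, whose replicate 3 was high, and sgWDR77-1 replicate 1 was the lowest of the 15. None of the log2 fold changes of TK1 against sgNeg, 0.39, 0.28, -0.23 and 0.40 in the same order, was called. RRM1 was called lower with sgWDR77-1, at 228 ± 14.8 CPM in sgNeg and 180.03 ± 24.9 CPM with the guide, a log2 fold change of -0.35 (SE 0.10, adjusted p = 0.0323). RRM1 was not called without sgNeg replicate 1 or 3 or sgWDR77-1 replicate 3 (log2 fold changes -0.36 to -0.24), nor in a fit of the compared groups only. TYMS was called with no guide, with values from -0.16 to 0.17.

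CHAF1A and CHAF1B, subunits of the factor that deposits histones behind the fork, and SLBP, which binds the stem-loop of histone mRNA, were called with no guide. CHAF1B was at 42.5, 41.4 and 47.7 CPM in sgNeg, 48.3, 52.1 and 56.7 with sgPRMT5-1, 48.2, 47.1 and 49.6 with sgPRMT5-2, 54.5, 38.1 and 34.5 with sgWDR77-1, and 59.5, 51.8 and 52.9 with sgWDR77-2. Libraries of sgPRMT5-1 and sgWDR77-2 lay above sgNeg, and those of sgPRMT5-2 and sgWDR77-1 overlapped it. The log2 fold changes of CHAF1B were 0.25, 0.14, -0.07 and 0.32 in the order of guides above. For CHAF1A and SLBP they ran from -0.06 to 0.22.

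Regulators of the step from G1 to S come last. E2F7, an E2F factor that represses E2F targets, was at 57.6, 55.1 and 53.1 CPM in sgNeg, 72.3, 62.8 and 75.9 with sgPRMT5-1, 87.8, 82.6 and 85.95 with sgPRMT5-2, 65.2, 56.6 and 57.1 with sgWDR77-1, and 68.5, 59.00 and 55.99 with sgWDR77-2. Libraries of both PRMT5 guides lay above sgNeg, with sgPRMT5-2 above sgPRMT5-1, and both WDR77 guides overlapped sgNeg. E2F7 (ENSG00000165891.16, chr12:77021248-77065569, minus strand) was at 55.3 ± 2.22 CPM in sgNeg and 85.5 ± 2.64 CPM with sgPRMT5-2. The log2 fold change was 0.63 (SE 0.10, adjusted p = 1.16e-04), called with every single library left out, and 0.34 (SE 0.11, adjusted p = 0.0867) with sgPRMT5-1, not called. E2F7 had the largest log2 fold change of the genes called higher with sgPRMT5-2, and its RefSeq promoter (GRCh38.p14, chr12:77065520-77065819, minus strand), shown for this reason, held none of the 4 motifs.
E2F7: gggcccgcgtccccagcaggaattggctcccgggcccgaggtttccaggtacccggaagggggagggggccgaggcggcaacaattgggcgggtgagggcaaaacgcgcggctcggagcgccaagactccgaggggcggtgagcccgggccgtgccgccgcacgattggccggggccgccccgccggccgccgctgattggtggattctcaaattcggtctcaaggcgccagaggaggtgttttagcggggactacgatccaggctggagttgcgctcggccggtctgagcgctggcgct
E2F2, an activating E2F factor, was at 1.02, 2.3 and 1.09 CPM in sgNeg, 0.764, 1.02 and 1.71 with sgPRMT5-1, 1.4, 0.68 and 1.18 with sgPRMT5-2, 0.554, 1.85 and 0.365 with sgWDR77-1, and 1.93, 1.94 and 0.54 with sgWDR77-2. All groups overlapped at these low counts, and a difference was not detectable at this depth, with log2 fold changes of -0.32, -0.37, -0.83 and -0.10 and an SE of 0.61 in the comparison of sgWDR77-1. CCNE1, the cyclin that starts S phase with CDK2, was called higher with sgPRMT5-2, a log2 fold change of 0.47 (SE 0.18, adjusted p = 0.0494). CCNE1 was not called without any 1 sgNeg library or any 1 sgPRMT5-2 library (log2 fold changes 0.34 to 0.55), nor with RLE scaling, with scaling by library totals only, with no filter on low counts or by limma-trend. CCNE2, a second cyclin E, the activator E2F1 and the repressor E2F8 were called with no guide, and their log2 fold changes ran from -0.45 to 0.50.

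**Figure D4:**
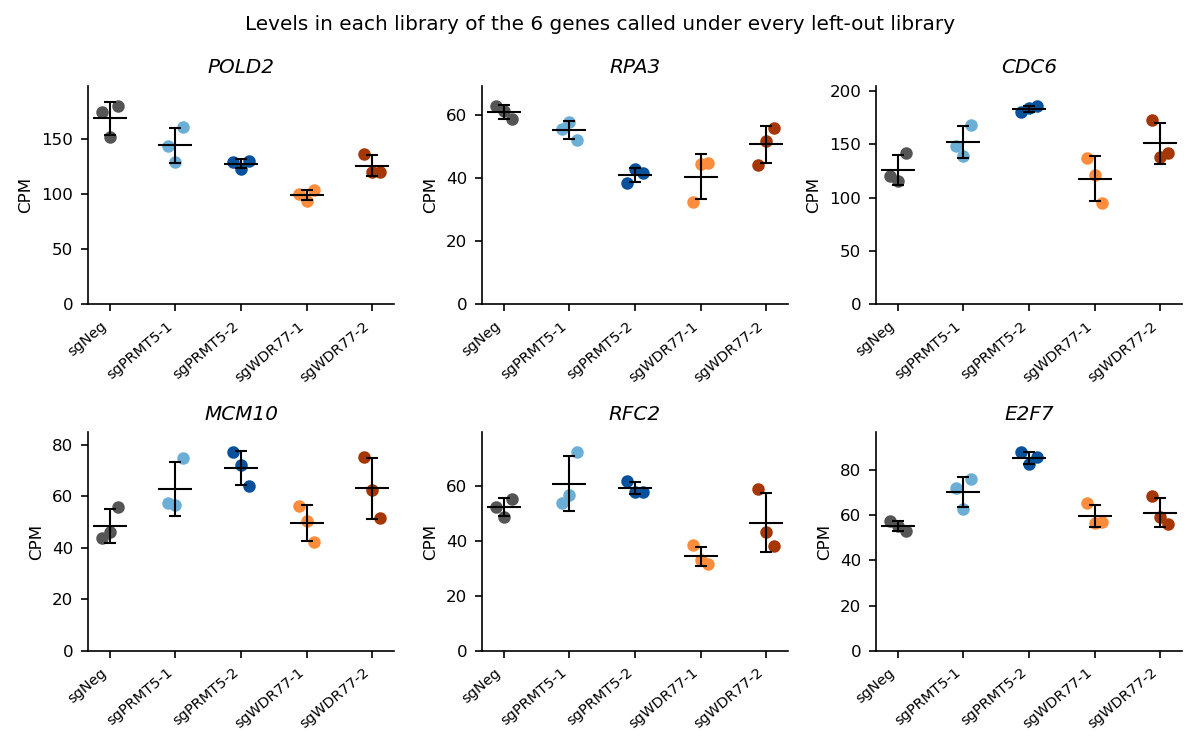
Level of CDC6, MCM10, RFC2, RPA3, POLD2 and E2F7 in each library, in TMM-scaled CPM from 0, with a point per library, a line at each group mean and whiskers of 1 SD (n = 3). These are the genes with a call against sgNeg that held with every single library left out, and POLD2 lies between 94.2 and 104 CPM in sgWDR77-1 and between 152 and 180.5 CPM in sgNeg.

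The guides of each target were compared with each other, since a call with 1 guide alone does not show that the guides differ. For sgPRMT5-2 against sgPRMT5-1, 0 of the 49 genes were called higher by limma voom and 1 lower, beside 3.56% and 3.98% of all genes. At an unadjusted p under 0.05, 3 were higher and 4 lower (6.12% and 8.16%, beside 11.3% and 12.7% of all genes). By limma-trend, 0 were called higher and 1 lower (0% and 2.04%, beside 2.92% and 4.43% of all genes). The number called higher was 2 without sgPRMT5-1 replicate 3 (4.08%, beside 5.68% of all genes), 6 with quality weights (12.2%, beside 13.8%) and 4 in a fit of the compared groups only (8.16%, beside 9.94%), each share below that of all genes. The number called lower was 2 with quality weights (4.08%, beside 15.4%) or the compared groups only (4.08%, beside 9.3%). The 1 gene called lower with all libraries was RPA3, with a log2 difference of -0.43 (SE 0.12, adjusted p = 0.0328). RPA3 was not called without sgPRMT5-1 replicate 1 or 2 or any 1 sgPRMT5-2 library (log2 fold changes -0.46 to -0.38), nor with no filter on low counts. The largest positive value was that of ORC6, 0.30 (SE 0.12, adjusted p = 0.126), not called, and for E2F7 it was 0.29 (SE 0.10, adjusted p = 0.0862), also not called. The median of the 49 was -0.02, beside -0.01 over all genes.

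For sgWDR77-2 against sgWDR77-1, 3 of the 49 genes were called higher and 0 lower by limma voom, beside 1.84% and 0.569% of all genes. At an unadjusted p under 0.05, 26 were higher (53.1%, beside 11.5% of all genes) and 0 lower (beside 7.41%). By limma-trend, 5 were called higher and 0 lower (10.2% and 0%, beside 2.13% and 0.576% of all genes). The median log2 difference was 0.31, beside 0.01 over all genes, and 47 of the 49 were positive, beside 7211 of the 14056 genes tested. The genes called by limma voom were MCM2 (0.39, SE 0.10, adjusted p = 0.0409), RPA1 (0.39, SE 0.10, adjusted p = 0.0467) and TK1 (0.63, SE 0.15, adjusted p = 0.0306). MCM2 is a subunit of the helicase, and RPA1 the large subunit of replication protein A. The count of genes called higher was 6 without sgWDR77-1 replicate 1 (12.2%, beside 2.28% of all genes), 1 without sgWDR77-1 replicate 2 (2.04%, beside 1.53%), and 0 without sgWDR77-2 replicate 1 or replicate 2 (beside 0.277% and 0.477%). It was 0 with scaling by library totals only, with no filter on low counts or in a fit of the compared groups only (beside 0.939%, 0.556% and 0.0999%), and 13 with quality weights (26.5%, beside 5.59%). MCM2 was not called without sgWDR77-1 replicate 2 or sgWDR77-2 replicate 1 or 2 (log2 fold changes 0.30 to 0.38), nor with scaling by library totals only, with no filter on low counts or in a fit of the compared groups only. TK1 was not called without sgWDR77-1 replicate 1 or sgWDR77-2 replicate 1 or 2 (log2 fold changes 0.43 to 0.66), nor with scaling by library totals only, with no filter on low counts or in a fit of the compared groups only. RPA1 was not called without any 1 sgWDR77-1 library or any 1 sgWDR77-2 library (log2 fold changes 0.29 to 0.44), nor with RLE scaling, with scaling by library totals only, with no filter on low counts or in a fit of the compared groups only. The sgWDR77-2 replicate 1 library had the highest summed level of its group, and sgWDR77-1 had the highest CDH5, with a log2 difference of -0.85 (SE 0.17, adjusted p = 0.012), called lower here but not in a fit of the compared groups only, while VWF had -0.05, not called. Of the 10 keratinocyte markers tested, 3 were called higher and 0 lower in this comparison (30% and 0%, beside 1.84% and 0.569% of all genes). Their median log2 difference was 0.33. The part of any of these in the difference of the 49 genes was not tested.

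The mean of both PRMT5 guides was compared with the mean of both WDR77 guides, a comparison that does not use sgNeg. Of the 49 genes, 15 were called higher (30.6%, beside 15.7% of all genes) and 0 lower (beside 11.4%) by limma voom. At an unadjusted p under 0.05, 22 were higher and 1 lower (44.9% and 2.04%, beside 21.4% and 17.1% of all genes). By limma-trend, 15 were called higher and 0 lower (30.6% and 0%, beside 15.5% and 11.6% of all genes). Against sgNeg, the median of the 49 was 0.17 with each PRMT5 guide, 0.14 with sgWDR77-2 and -0.10 with sgWDR77-1, so that the mean of the WDR77 guides joins medians of opposite sign. The endothelial markers CDH5 and VWF, the 2 tested, and PMEL, 1 of 2 melanocyte markers tested, were called lower in this comparison (-0.56, SE 0.12, adjusted p = 0.0021; -1.41, SE 0.39, adjusted p = 0.0107; -0.92, SE 0.30, adjusted p = 0.0252). PMEL was not called without sgPRMT5-1 replicate 2, sgPRMT5-2 replicate 2 or sgWDR77-2 replicate 2 (log2 fold changes -0.84 to -0.64), nor with no filter on low counts. The second melanocyte marker, MLANA, had 0.25 (SE 0.39, adjusted p = 0.672), of opposite sign and not called. The genes called higher were ORC6, CDC6, MCM2, MCM3, MCM5 and MCM7 of licensing, GINS2, the loader subunits RFC2 and RFC5, RPA1, POLD2, FEN1, RRM1, CCNE1 and E2F7. RFC2 had the largest difference, 0.59 (SE 0.10, adjusted p = 1.80e-04), followed by MCM7 with 0.47 (SE 0.08, adjusted p = 3.54e-04), and MCM3 the smallest, 0.19 (SE 0.07, adjusted p = 0.0327). Of the 4 genes on chromosome 7, RFC2, MCM7 and POLD2 were called and RPA3 was not, and the part of location was not tested. POLD2 was higher with the PRMT5 guides by 0.28 (SE 0.07, adjusted p = 0.00564) on the log2 scale, and its log2 fold change against sgNeg was negative with all 4 guides. The calls of CDC6, MCM2, MCM7, GINS2, RFC2, RFC5, POLD2, RRM1 and E2F7 held in all 12 fits with 1 library left out. The number called higher was 9 without sgPRMT5-1 replicate 3 (18.4%, beside 11.8% of all genes), 9 without sgPRMT5-2 replicate 3 (18.4%, beside 11.1%) and 23 with quality weights (46.9%, beside 23.1%).

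In the same comparison, 1 gene was called lower without sgWDR77-1 replicate 2 (2.04%, beside 10.7% of all genes), 1 with RLE scaling (2.04%, beside 12.7%), 1 with quality weights (2.04%, beside 18.3%) and 2 with scaling by library totals only (4.08%, beside 15.4%). With library totals, 9 of the 49 genes were higher and 2 lower, so that 81.8% of the called genes were higher and not 100%, and over all genes 1505 were higher and 2163 lower, in place of 2205 and 1608. ORC6 was not called without sgPRMT5-1 replicate 3, any 1 sgPRMT5-2 library, sgWDR77-1 replicate 3 or sgWDR77-2 replicate 2 or 3 (log2 fold changes 0.22 to 0.27), nor with scaling by library totals only or with no filter on low counts. MCM3 was not called without sgPRMT5-1 replicate 1 or 3, any 1 sgPRMT5-2 library, sgWDR77-1 replicate 2 or sgWDR77-2 replicate 2 or 3 (log2 fold changes 0.15 to 0.19), nor with RLE scaling or with scaling by library totals only. MCM5 was not called without sgPRMT5-1 replicate 1 or 3, any 1 sgPRMT5-2 library, sgWDR77-1 replicate 3 or sgWDR77-2 replicate 2 or 3 (log2 fold changes 0.23 to 0.28), nor with scaling by library totals only or with no filter on low counts. RPA1 was not called without any 1 sgPRMT5-1 library, any 1 sgPRMT5-2 library, sgWDR77-1 replicate 1 or 3 or sgWDR77-2 replicate 2 or 3 (log2 fold changes 0.16 to 0.21), nor with RLE scaling, with scaling by library totals only, with no filter on low counts or in a fit of the compared groups only. FEN1 was not called without sgPRMT5-1 replicate 3, sgPRMT5-2 replicate 3 or sgWDR77-2 replicate 3 (log2 fold changes 0.21 to 0.22), nor with scaling by library totals only. CCNE1 was not called without sgPRMT5-1 replicate 2 or 3, any 1 sgPRMT5-2 library, sgWDR77-1 replicate 2 or 3 or sgWDR77-2 replicate 1 or 2 (log2 fold changes 0.30 to 0.37), nor with RLE scaling, with scaling by library totals only or with no filter on low counts.

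Other genes of the pathway were read from lists outside the 49. Of all genes tested, 16.3% and 14.7% were called higher and lower with sgPRMT5-2, 3.58% and 5.9% with sgWDR77-1 and 1.81% and 2.98% with sgWDR77-2, and shares of each list are given in brackets beside these. Of 36 other replication genes, 6 (16.7%) were called higher and 1 (2.78%) lower with sgPRMT5-2, 1 (2.78%) lower with sgWDR77-1 and 1 (2.78%) higher with sgWDR77-2. CLSPN, which relays the checkpoint signal at the fork, had log2 fold changes of 0.51, 0.77, 0.15 and 0.42 for PRMT5 guides 1 and 2 and WDR77 guides 1 and 2. For DNMT1, which copies DNA methylation behind the fork, they were 0.38, 0.62, 0.19 and 0.29, and for TOPBP1, which helps to activate the helicase, 0.25, 0.46, 0.19 and 0.30. The values with sgPRMT5-2 were called for these 3 genes, the others not. Of 29 regulators of RB, DREAM and cyclin-dependent kinases tested, of 30 listed, 7 (24.1%) were higher and 4 (13.8%) lower with sgPRMT5-2, 4 (13.8%) lower with sgWDR77-1 and 3 (10.3%) lower with sgWDR77-2. Of 10 checkpoint genes, 2 (20%) were lower with sgPRMT5-2, 3 (30%) lower with sgWDR77-1 and 1 (10%) higher with sgWDR77-2. Of 27 mitosis genes, 7 (25.9%) were higher and 1 (3.7%) lower with sgPRMT5-2, 4 (14.8%) lower with sgWDR77-1 and 2 (7.41%) higher with sgWDR77-2. With sgPRMT5-1, limma voom called 0 genes of these 4 lists, and at an unadjusted p under 0.05 it gave 7, 6, 0 and 5 higher and 0, 1, 1 and 0 lower, in the order of the lists (19.4%, 20.7%, 0% and 18.5%, beside 10% of all genes, and 0%, 3.45%, 10% and 0%, beside 7.44%).

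CDKN1A, the p21 inhibitor of the kinases that drive S phase, was at 43.00, 38.95 and 49.9 CPM in sgNeg, 53.3, 66.2 and 78.6 with sgPRMT5-1, 147, 125 and 127 with sgPRMT5-2, 26.2, 37.6 and 54.6 with sgWDR77-1, and 47.9, 47.2 and 58.9 with sgWDR77-2. The sgPRMT5-2 libraries lay far above all others, those of sgPRMT5-1 lay above sgNeg, and both WDR77 guides overlapped sgNeg. CDKN1A had a log2 fold change of 1.60 (SE 0.17, adjusted p = 6.13e-07) with sgPRMT5-2 and 0.58 (SE 0.18, adjusted p = 0.0888) with sgPRMT5-1, of which the first was called, and the guides differed by 1.03 (SE 0.16, adjusted p = 3.36e-04). CCND2, a D-type cyclin that acts upstream of E2F release, was at 49.3, 53.2 and 63.7 CPM in sgNeg, 81.9, 65.2 and 66.9 with sgPRMT5-1, 91.3, 88.6 and 89.8 with sgPRMT5-2, 20.3, 20.7 and 23.7 with sgWDR77-1, and 18.7, 20.1 and 20.2 with sgWDR77-2. The WDR77 guide libraries lay below sgNeg and those of both PRMT5 guides above it. CCND2 had a log2 fold change of 0.37 (SE 0.11, adjusted p = 0.0753) with sgPRMT5-1, not called, 0.71 (SE 0.11, adjusted p = 4.99e-05) with sgPRMT5-2, -1.35 (SE 0.13, adjusted p = 1.23e-06) with sgWDR77-1 and -1.48 (SE 0.14, adjusted p = 5.21e-07) with sgWDR77-2. E2F4, an E2F factor of repressor complexes, rose with sgPRMT5-2 by 0.56 (SE 0.11, adjusted p = 4.31e-04) on the log2 scale.

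Among checkpoint genes, the phosphatase CDC25B had log2 fold changes of -0.14, -0.41, -0.67 and -0.31 in the order of guides above, called lower with sgPRMT5-2 and sgWDR77-1. The kinase WEE1 was called lower with sgWDR77-1 (-0.43, SE 0.12, adjusted p = 0.0262), and ETAA1, an activator of the ATR kinase, lower with sgPRMT5-2 (-0.54, SE 0.16, adjusted p = 0.0139). WEE1 was not called without sgNeg replicate 3 or sgWDR77-1 replicate 3 (log2 fold changes -0.42 to -0.28), nor in a fit of the compared groups only. ETAA1 was not called without sgNeg replicate 2 (log2 fold change -0.47). Among mitosis genes, the kinase CDK1 had values of 0.01, -0.35, -0.30 and -0.21, called lower with sgPRMT5-2 and sgWDR77-1. CDK1 was not called with sgWDR77-1 without any 1 sgNeg library or sgWDR77-1 replicate 3 (log2 fold changes -0.33 to -0.29), nor in a fit of the compared groups only. The spindle checkpoint kinase BUB1 had 0.29, 0.40, 0.05 and 0.43, called higher with sgPRMT5-2 and sgWDR77-2, and BUB1 was not called with sgWDR77-2 without sgNeg replicate 1 or 2 or sgWDR77-2 replicate 1 or 2 (log2 fold changes 0.37 to 0.40). FOXM1, a factor for genes of G2 and mitosis, had 0.30, 0.56, 0.11 and 0.29, called higher with sgPRMT5-2.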

How the data were processed

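RNA of 15 libraries was read as 76-base single ends. The authors aligned reads to hg38 with STAR 2.7.11b and counted them with htseq-count 2.0.3, and the deposited value of each gene is a whole-number read count, not normalized. Summary lines were left out of totals (reads outside genes 2.75% to 7.16%, ambiguous 7.09% to 7.93%, placed more than once 9.49% to 13.1%). Gene reads per library, which limit precision, numbered 5146711 to 6730428. Counts were scaled by TMM (trims 0.3 and 0.05), genes whose normalized count averaged 3 or more were kept, and limma 3.58.1 (voom, R 4.3.3) fitted 5 group means, with 7 comparisons and an adjusted p threshold of 0.05. The code was tested on simulated data, with a criterion that was changed after a first version was missed. Alternatives were RLE scaling, library totals, no filter or a minimum of 10, a replicate block, quality weights, limma-trend, the compared groups only, and each library left out. Members and lists were chosen with earlier results of these data known. Values in every library are given for the 2 genes per role with the largest mean absolute log2 fold change over the 4 guides (1 in roles of 2 or 3 genes). Named outside the 49 are PRMT5, WDR77, CDKN1A, the 3 genes of smallest adjusted p in each other list and the 5 genes most like the mean. Marker genes and other genes with group means were chosen after their values were seen.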

Additional observations from a re-analysis of the deposited data

Results flagged for a closer look

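The guides of 1 target differed, by a test of the difference itself, for 4 of the 49 replication genes. With the PRMT5 guides this was 1 lower and 0 higher (2.04% and 0%, beside 3.98% and 3.56% of all genes), and with the WDR77 guides 3 higher and 0 lower (6.12% and 0%, beside 1.84% and 0.569%). RPA3 was lower with sgPRMT5-2 than with sgPRMT5-1 by a log2 difference of -0.43 (SE 0.12, adjusted p = 0.0328). MCM2 was higher with sgWDR77-2 than with sgWDR77-1 by 0.39 (SE 0.10, adjusted p = 0.0409), RPA1 by 0.39 (SE 0.10, adjusted p = 0.0467) and TK1 by 0.63 (SE 0.15, adjusted p = 0.0306). RPA3 was not called without sgPRMT5-1 replicate 1 or 2 or any 1 sgPRMT5-2 library (log2 fold changes -0.46 to -0.38), nor with no filter on low counts. MCM2 was not called without sgWDR77-1 replicate 2 or sgWDR77-2 replicate 1 or 2 (log2 fold changes 0.30 to 0.38), nor with scaling by library totals only, with no filter on low counts or in a fit of the compared groups only. RPA1 was not called without any 1 sgWDR77-1 library or any 1 sgWDR77-2 library (log2 fold changes 0.29 to 0.44), nor with RLE scaling, with scaling by library totals only, with no filter on low counts or in a fit of the compared groups only. TK1 was not called without sgWDR77-1 replicate 1 or sgWDR77-2 replicate 1 or 2 (log2 fold changes 0.43 to 0.66), nor with scaling by library totals only, with no filter on low counts or in a fit of the compared groups only. The cause of these differences was not tested.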

How the results depend on the processing

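The changes of PRMT5 and WDR77 with their own guides stayed called in the same direction under all 14 alternatives of each. Refitted under the other settings, 72 other called values of named genes gave 521 results that kept their direction and side of the threshold and 53 that were no longer called, against 408 and 132 with 1 library left out, and none of them changed sign. The refits of KRT5, COL1A1, CDH5, VWF and PMEL, and of CDKN1A between the PRMT5 guides, were chosen after seeing the data, and VWF was not tested with a minimum of 10.

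Numbers of the 49 genes called moved by over 1.5 times as follows. With library totals only, 7 were higher with sgPRMT5-2, 0 higher in sgWDR77-2 against sgWDR77-1, and 9 higher and 2 lower in PRMT5 against WDR77 guides. With RLE scaling 1 was lower in the last comparison. With no filter, 2 were lower with sgPRMT5-2, 0 lower in sgPRMT5-2 against sgPRMT5-1 and 0 higher in sgWDR77-2 against sgWDR77-1. With quality weights, 1 was higher and 1 lower with sgPRMT5-1, 1 higher with sgWDR77-2, 6 higher and 2 lower in sgPRMT5-2 against sgPRMT5-1, 13 higher in sgWDR77-2 against sgWDR77-1, and 23 higher and 1 lower in PRMT5 against WDR77 guides. By limma-trend 5 were higher in sgWDR77-2 against sgWDR77-1. In fits of the compared groups only, with fewer libraries, 2 were lower with sgWDR77-1, 1 higher with sgWDR77-2, 4 higher and 2 lower in sgPRMT5-2 against sgPRMT5-1, and 0 higher in sgWDR77-2 against sgWDR77-1. With 1 library left out, the ranges were 4 to 11 higher and 2 to 4 lower with sgPRMT5-2, 3 to 7 lower with sgWDR77-1, 0 to 2 higher and 0 to 1 lower in sgPRMT5-2 against sgPRMT5-1, 0 to 6 higher in sgWDR77-2 against sgWDR77-1, and 9 to 18 higher and 0 to 1 lower in PRMT5 against WDR77 guides. The cause was not tested.

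Replicate numbers do not pair the libraries: the deviations of same-numbered libraries from their groups had correlations of -0.157 to 0.139, with 2 of 30 pairs over 0.1, and 6 of 15 libraries were closest to their own number. With replicate number as a block, 1 replication gene was higher in sgWDR77-2 against sgWDR77-1 (2.04%, beside 1.34% of all genes). Under this block, MCM2 and RPA1 in that comparison, CCNE1 and COL1A1 with sgPRMT5-2 and CDK1 with sgWDR77-1 were not called.

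Of 46 values not called against sgNeg that were refitted, 7 results were called in the same direction under other settings, and none with 1 library left out. With quality weights these were DSCC1 with sgWDR77-2 (0.35), POLA1 with sgPRMT5-2 (0.34), and POLD2 (-0.29) and E2F7 (0.31) with sgPRMT5-1. In fits of the compared groups only they were DSCC1 with sgWDR77-2 (0.39), and POLA1 (0.33) and TK1 (0.27) with sgPRMT5-2. Values not called that changed sign were, with quality weights, the log2 fold changes of DSCC1 with sgWDR77-1 (-0.12) and of E2F2 with sgWDR77-2 (0.052). With 1 library left out, log2 fold changes with sgWDR77-1 ran from -0.22 to 0.039 for CDC6, -0.053 to 0.14 for MCM10, -0.16 to 0.15 for DSCC1, -0.056 to 0.24 for POLA1 and -0.26 to 0.058 for CHAF1B. E2F2 ran from -0.65 to 0.026 with sgPRMT5-1 and from -0.43 to 0.44 with sgWDR77-2. The cause was not tested. Tests with edgeR and DESeq2 were not run. Counts of 2 to 14 reads limit E2F2.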
